A study of Mus musculus with 629 samples.

Results

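The mitochondrially encoded genes were the rows of the count table whose symbol starts with mt-. They numbered 37 of the 53546 gene rows: 13 protein-coding genes, 2 ribosomal RNA (rRNA) genes and 22 transfer RNA (tRNA) genes. All 37 had an entry in the GENCODE M21 annotation of the mouse genome. The cells were single brain cells of adult C57BL/6 mice with a knockout (KO), heterozygous (Het) or wild-type (WT) Notch3 genotype. All mice belonged to a reporter line, SM22-Cre;Rosa26-stop-tdTomato, in which a smooth muscle Cre switches on a red fluorescent protein. Cells had been sorted singly by fluorescence into 384-well plates and sequenced with SMART-seq2, which copies polyadenylated RNA along its full length. The labels gave 400 macrophages (119 KO, 70 Het and 211 WT), 215 microglia (78 KO, 58 Het and 79 WT) and 14 cells of a type named only 7, on 6 plates.

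Mitochondria keep a small circular genome of their own, which is copied into long transcripts from both strands and then cut into separate RNAs, with the tRNAs often marking the cuts. Its messages code for core subunits of respiratory complexes I, III and IV and of the ATP synthase, while all other subunits are made from nuclear genes. Mitochondrial messages and rRNAs carry short poly(A) tails, and their share of a cell's reads is widely used as a sign of cell quality. Stretches of the mitochondrial genome have also been copied into nuclear chromosomes during evolution.

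The table did not count the mitochondrial genome evenly. Between the end of mt-Co1 and the start of mt-Nd4, 7 protein-coding genes have a near-identical whole or partial copy on chromosome 1, annotated as 7 pseudogenes, and 6 protein-coding genes within that stretch were almost empty. The sequence between the annotated copies was not compared, so for mt-Atp8 and the tRNA genes there only the length of the gaps is known. The sequences below show why a read can fit both places. For mt-Nd4l, a complex I subunit, the whole gene (chrM:9877-10173, plus strand, GRCm38) and its annotated chromosome 1 copy Gm10222 (chr1:24612407-24612700, minus strand) were compared. The copy matched 294 of 294 bases.
mt-Nd4l: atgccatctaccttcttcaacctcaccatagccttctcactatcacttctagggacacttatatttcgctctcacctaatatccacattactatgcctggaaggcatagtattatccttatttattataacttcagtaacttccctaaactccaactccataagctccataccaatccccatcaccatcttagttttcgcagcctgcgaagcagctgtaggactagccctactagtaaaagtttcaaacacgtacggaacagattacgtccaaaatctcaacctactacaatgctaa
Gm10222: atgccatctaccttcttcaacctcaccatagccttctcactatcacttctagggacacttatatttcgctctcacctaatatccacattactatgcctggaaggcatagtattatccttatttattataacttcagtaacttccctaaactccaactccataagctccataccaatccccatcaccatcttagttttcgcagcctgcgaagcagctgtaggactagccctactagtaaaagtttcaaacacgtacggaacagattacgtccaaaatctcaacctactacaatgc

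The edges of the shared stretch lie inside mt-Nd4, another complex I subunit (chrM:11003-11082, plus strand), and inside mt-Co1, the catalytic subunit of complex IV (chrM:6354-6433, plus strand). Capitals mark, in mt-Nd4, the bases beyond the end of the annotated copy and, in mt-Co1, the bases before base 1067, where unbroken identity with the copy begins. The annotated copy of mt-Co1 starts earlier, at base 1054, and its 6 differences lie before base 1067. Both genes extend well beyond these edges, outside the chromosome 1 copy, and both were counted.
mt-Nd4: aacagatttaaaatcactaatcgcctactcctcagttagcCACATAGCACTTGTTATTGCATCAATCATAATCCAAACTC
mt-Co1: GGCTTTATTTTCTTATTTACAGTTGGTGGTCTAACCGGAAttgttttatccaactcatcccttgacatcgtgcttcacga

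Over all 629 cells, mt-Co2 (complex IV) had 0 counts, mt-Atp8 (ATP synthase) 1, mt-Co3 (complex IV) 1, mt-Nd3 (complex I) 1, mt-Atp6 (ATP synthase) 3 and mt-Nd4l 4. Against these stood 677924 counts of mt-Cytb, 672290 of mt-Co1, 386844 of mt-Nd1, 178630 of mt-Nd5, 151022 of mt-Nd4, 40562 of mt-Nd2 and 24438 of mt-Nd6. No protein-coding gene fell between 4 and 24438 counts, so the 13 split into 7 that were counted and 6 that were not. The uncounted genes are neighbours on the mitochondrial genome, not members of 1 complex.

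Each gene was cut into overlapping windows of 50 bases, and windows that occur in a nuclear transcript of GENCODE M21 were counted as shared. Of the uncounted genes, mt-Co2 shared 100% of its windows, mt-Co3 99.9%, mt-Atp6 99.5%, mt-Nd4l 98.8% and mt-Nd3 98.0%. mt-Atp8 shared 0% with the transcripts searched, but it lies in the gap between the copies of mt-Co2 and mt-Atp6, which is 233 bases long on the mitochondrial genome and 233 on chromosome 1. Among the counted genes, mt-Nd4 shared 62.2%, mt-Co1 51.1%, mt-Nd2 8.19% and mt-Nd5 7.61%, while mt-Nd1, mt-Cytb and mt-Nd6 shared 0%. For mt-Co1, 28.7% of windows were shared with its chromosome 1 copy. In part the same windows, 27.5% were shared with Gm13340 on chromosome 2, which had 506 counts. The latter windows lie between bases 1 and 1457 of mt-Co1.

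The chromosome 1 copies follow the mitochondrial order: Gm29216 (mt-Co1), Gm28661 (mt-Co2), Gm10925 (mt-Atp6), Gm28437 (mt-Co3), Gm28438 (mt-Nd3), Gm10222 (mt-Nd4l) and Gm28439 (mt-Nd4). The copies of mt-Co2, mt-Atp6, mt-Co3, mt-Nd4l and mt-Nd4 were 100% identical over their length. The copy of mt-Nd3 differed at 1 base (T3C, counted from the start of mt-Nd3, the mitochondrial base given first) and that of mt-Co1 at 6. The 7 copies together held 1330 counts, of which 1051 were of Gm28438, in 354 of 629 cells. How the authors' counting treated reads that fit several places is not given in the sources used here. The mitochondrial share reported below is therefore the share of what was counted, and levels of mt-Co1 and mt-Nd4 may be understated by reads from their shared parts.

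**Figure D1:**
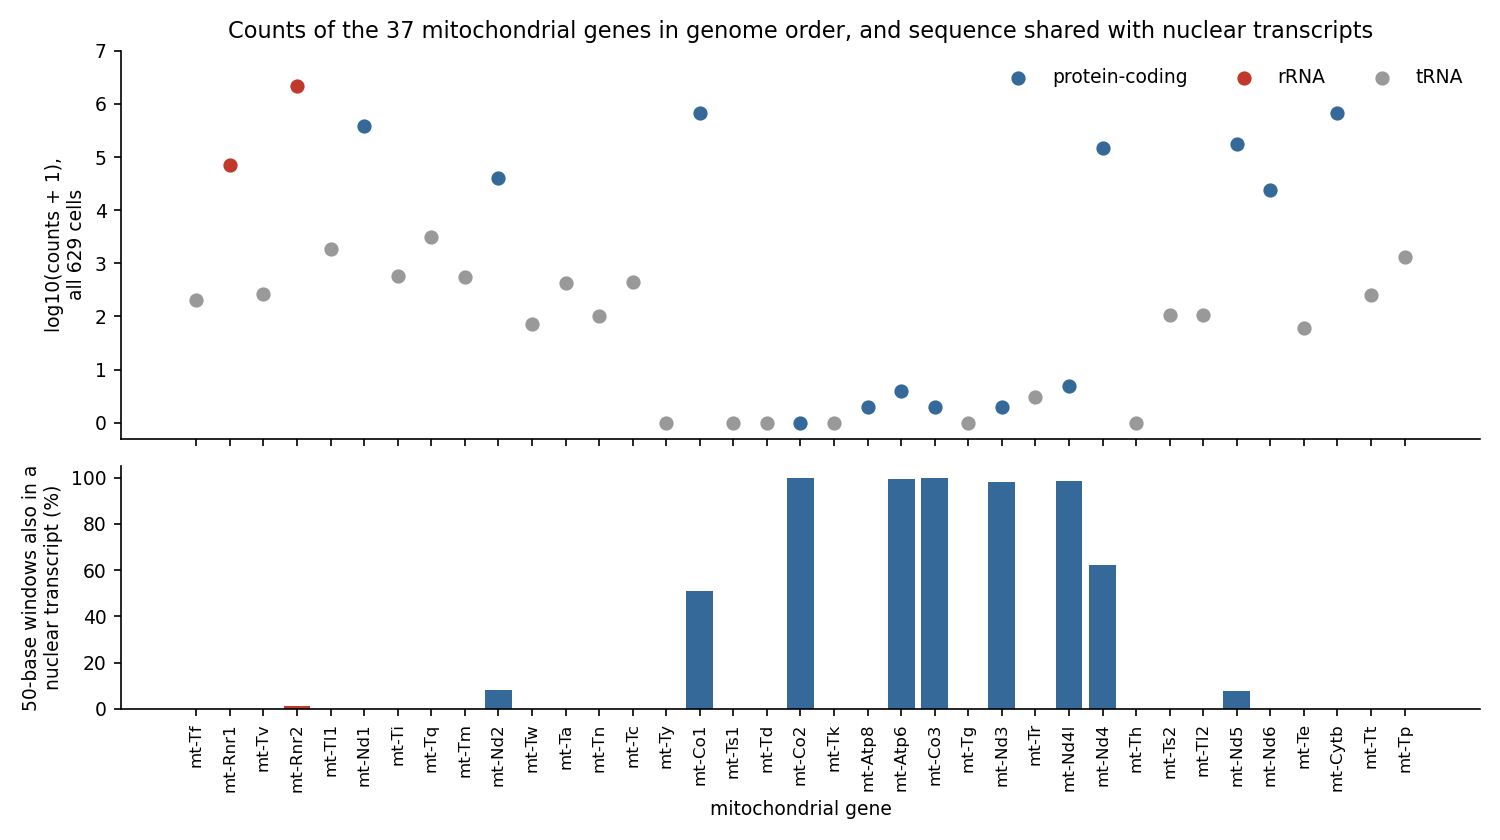
Upper panel: log10(counts + 1) of each of the 37 mitochondrial genes over all 629 cells, in genome order. Lower panel: percent of each gene's 50-base windows that also occur in a nuclear transcript. The run of genes at or near 0 counts lies between mt-Co1 and mt-Nd4, where mt-Co2, mt-Atp6, mt-Co3, mt-Nd3 and mt-Nd4l share 98.0% to 100% of their windows.

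The tRNA genes were a small part of the counts. They held 9424 of 4410121 mitochondrial counts, or 0.214%, and 15 of 22 had between 60 and 3078 counts over all cells. The highest was mt-Tq, the glutamine tRNA, with 3078 counts, and it alone reached 20 CPM, that is, counts scaled to a common total, in a genotype of a cell type. The total behind CPM is that of all gene counts without Rn18s, the nuclear 18S rRNA, and without the ERCC spike-in RNAs. The other 7 tRNA genes had 0 to 2 counts; 5 of them lie in gaps of the chromosome 1 copy, and the remaining pair, mt-Ty and mt-Th, lie outside it and had 0 counts each. At 59 to 75 bases, tRNAs are short for this kind of library.

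mt-Rnr2, the large (16S) rRNA, was the main member. It had 2197400 counts, 49.8% of all mitochondrial counts, and the 13 protein-coding genes had 48.3%. mt-Rnr1, the small (12S) rRNA, is made from the same promoter but had 71577 counts. In macrophages mt-Rnr2 stood at 29.7 counts per mt-Rnr1 count, and in microglia at 33.2.

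Per kilobase of annotated length, mt-Rnr2 reached 7180 CPM per kb in macrophages and 7385 CPM per kb in microglia. mt-Cytb, the cytochrome b of complex III, followed with 3030 CPM per kb in macrophages and 3241 CPM per kb in microglia. mt-Co1 had 2346 and mt-Nd1 2150 CPM per kb in macrophages, and 2193 and 2078 CPM per kb in microglia. The ranges of the 8 pools overlapped among these 3 genes in both cell types. In macrophages, for example, the pools ran from 1509 to 4665 CPM per kb for mt-Cytb, from 1519 to 2722 for mt-Co1 and from 1194 to 2714 for mt-Nd1. Their order is not separable from the spread between pools. mt-Rnr2 was not the highest everywhere: in Het cells of plate 056s it had 4120 CPM per kb against 4665 for mt-Cytb in macrophages, and 3608 against 3956 in microglia. In the other 7 pools of each cell type mt-Rnr2 was above mt-Cytb per kb.

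A lower group followed: mt-Nd4 had 571 CPM per kb, mt-Nd5 517, mt-Rnr1 400, mt-Nd6 235 and mt-Nd2 186 in macrophages. In microglia mt-Nd4 had 579 CPM per kb, mt-Nd5 507, mt-Rnr1 369, mt-Nd6 265 and mt-Nd2 233. Neighbours in this group also overlapped across pools. The step between the groups did not: the highest pool of mt-Nd5 had 725 CPM per kb in macrophages, against 1194 for the lowest pool of mt-Nd1. A further scale used the number of unshared 50-base windows, taken as bases, in place of the annotated length. On it mt-Co1 had 4959 CPM per kb and mt-Nd4 1568 CPM per kb in macrophages, and 4636 and 1589 CPM per kb in microglia. mt-Cytb had 3166 CPM per kb in macrophages and 3386 CPM per kb in microglia. The scale keeps all counts of a gene, and how many came from shared windows is not known. It was not computed by pool, so no order of genes or step between groups is read from it.

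mt-Nd6 is the only protein-coding gene read from the other (light) strand, and its 3' end overlaps that of mt-Nd5 by 14 bases. Whether the counting used strand is not given in the sources used here, and SMART-seq2 does not mark it. Reads of mt-Nd6 and of transcripts running through it from the opposite strand therefore cannot be told apart. The same holds for mt-Tq, which is also on the light strand.

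The first comparison asked whether the mitochondrial share of counts differed with Notch3 genotype. It did not separate the genotypes in either cell type. Summed over cells, mitochondrial genes held 2.23% of the counts of KO macrophages, 2.22% of Het macrophages and 2.37% of WT macrophages. In microglia they held 2.47% in KO, 2.14% in Het and 2.39% in WT. No label names an animal and each deposited sample is 1 cell, so a genotype of a cell type is 1 sample, and no test between genotypes was made. The spread was read from pools, the cells of 1 genotype on 1 plate, of which there were 8 per cell type with at least 10 cells each.

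In KO macrophages the share was 2.03% on plate 060s and 2.81% on plate 524s. In Het macrophages it was 2.15% on plate 056s, 2.22% on plate 524s and 3.18% on plate 529s. In WT macrophages it was 2.35% on plate 059s, 3.09% on plate 529s and 2.28% on plate 530s. The 3 genotypes overlapped, and the highest Het and WT pools came from the same plate, 529s.

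In KO microglia the share was 1.71% on plate 060s and 3.07% on plate 524s. In Het microglia it was 1.93% on plate 056s, 2.55% on plate 524s and 2.50% on plate 529s. In WT microglia it was 1.93% on plate 059s, 2.19% on plate 529s and 4.10% on plate 530s. Here too the genotypes overlapped. Counting error is small beside this: the widest exact (Clopper-Pearson) 95% interval of any pool, that of Het macrophages on plate 529s, ran from 3.16% to 3.20%. Such intervals cover counting error only, and reads without molecular identifiers can be PCR copies of 1 molecule.

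On the log2 scale the KO over WT ratio of the share was -0.08 in macrophages and 0.05 in microglia. The KO over Het ratio was 0.01 in macrophages and 0.21 in microglia, and the Het over WT ratio was -0.09 in macrophages and -0.16 in microglia. The standard deviation of the log2 share between pools of 1 genotype was 0.29 in macrophages and 0.48 in microglia (8 pools each), larger than any of the 6 ratios. Where 2 genotypes shared a plate, the ratio passed that spread once, in macrophages of plate 524s. On plate 524s the KO over Het ratio was 0.34 in macrophages and 0.27 in microglia (0.07 without cells over 10%, described below), and on plate 529s the Het over WT ratio was 0.05 in macrophages and 0.19 in microglia.

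The share of single cells varied more than the pools did. The median macrophage had a share of 2.09% in KO, 2.29% in Het and 1.93% in WT, and the median microglial cell 1.76% in KO, 2.05% in Het and 1.84% in WT. Over all macrophages the share ran from 0.527% to 8.03%, and over all microglia from 0.591% to 35.4%. The medians order the genotypes with Het highest in both cell types, which the summed shares do not.

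**Figure D2:**
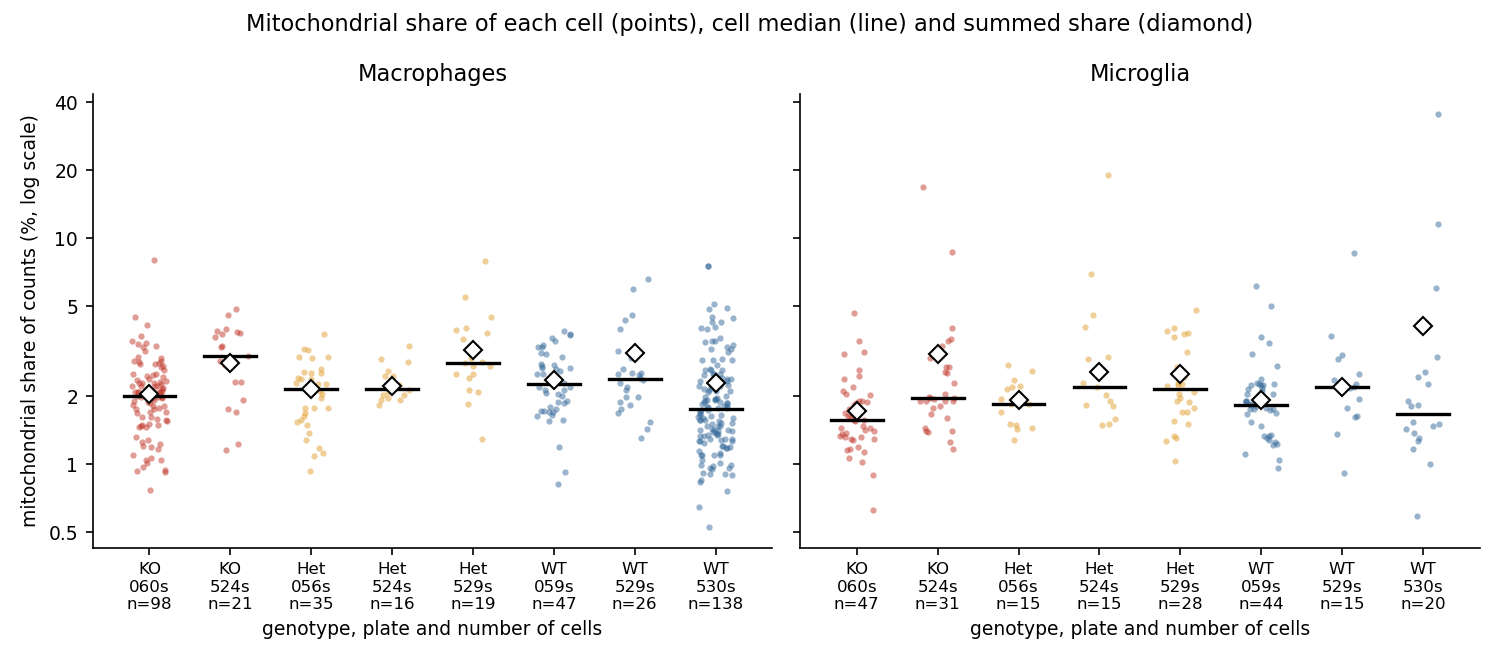
Mitochondrial share of counts (percent, log scale) in each macrophage (left) and microglial cell (right), by genotype and plate. Points are cells, black lines the median cell of a pool, and diamonds the share summed over the pool. Pools overlap between genotypes, and the diamonds of KO 524s and WT 530s microglia, at 3.07% and 4.10%, lie above their medians of 1.95% and 1.67%.

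Single cells with a very high share set some of these sums. Over 5% were 8 of 400 macrophages (2%, exact interval 0.867% to 3.90%) and 10 of 215 microglia (4.65%, 2.25% to 8.39%). Over 10% were 0 of 400 macrophages, which allows a share of up to 0.918% by the exact interval, and 4 of 215 microglia. The 4 cells were 1 KO cell of plate 524s at 16.9%, 1 Het cell of plate 524s at 18.9%, and 2 WT cells of plate 530s at 35.4% and 11.5%. Without them the share of KO microglia on plate 524s was 2.39%, of Het microglia on plate 524s 2.28% and of WT microglia on plate 530s 1.95%. Over the genotypes it was then 2.08% in KO, 2.11% in Het and 1.96% in WT microglia.

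The 4 cells carried the defining microglial markers and little of the macrophage ones. The 10 microglial markers held 2.85% to 4.49% of their counts and the 10 macrophage markers 0.0803% to 0.335%. They were not the shallowest cells, with 48032 to 524187 counts. The KO cell differed from the other 3 in its makeup: mt-Rnr2 stood at 0.201 per protein-coding mitochondrial count in it, against 1.70 to 2.11 in the others. Its Rn18s share was 10.1%, against 33.9% to 49.7%. In that cell mt-Cytb made up 47.2% of protein-coding mitochondrial counts and mt-Co1 13.4%.

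The second question was whether single mitochondrial genes differed between genotypes. A gene was called where it reached 20 CPM in a genotype, lay at least 1.5-fold from both WT and Het in KO (ratios of CPM + 1), and had every KO pool beyond every other pool. In macrophages 10 of the 37 genes reached 20 CPM, and 0 of 10 were called; of all 7459 genes measured, 1.27% were called higher in KO and 1.64% lower. In microglia 9 genes reached 20 CPM, and 0 of 9 were called; of 7503 genes, 1.45% were called higher and 1% lower. By the same rule for Het against WT, 0 of 10 were called in macrophages, where 2.21% of genes were higher in Het and 4.92% lower. For Het against WT microglia it was 0 of 9, against 2.67% higher and 3.03% lower. Against these backgrounds, counts of 0 among 9 or 10 genes say nothing particular to the mitochondrial genes.

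Past the fold limit alone, the mitochondrial genes were counted beside all genes. At least 1.5-fold apart without the condition on pools were 1 of 10 for KO over WT macrophages (31.3% of all genes), 4 of 10 for KO over Het (45.9%) and 3 of 10 for Het over WT (42%). In microglia it was 1 of 9 for KO over WT (30.6%), 1 of 9 for KO over Het (34.7%) and 0 of 9 for Het over WT (34.6%). The median log2 ratio of the members was -0.15 for KO over WT macrophages, against -0.07 over all genes, and 0.07 for KO over WT microglia, against -0.05 over all genes. No test was made of these differences.

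mt-Cytb showed the widest gap between genotypes in macrophages. It had 2085 CPM on plate 060s and 2542 CPM on plate 524s in KO macrophages. In Het macrophages it had 5337 CPM on plate 056s, 1726 CPM on plate 524s and 2889 CPM on plate 529s, and in WT macrophages 4035 CPM on plate 059s, 2580 CPM on plate 529s and 2293 CPM on plate 530s. The Het pool of plate 056s and the WT pool of plate 059s were high, and all other pools lay between 1726 and 2889 CPM. The summed log2 ratio of KO over Het was -1.16, but on plate 524s, which holds both, it was 0.56. Plate 056s supplied only Het cells, so its level and the genotype cannot be told apart there.

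In microglia mt-Cytb had 1761 CPM on plate 060s and 5142 CPM on plate 524s in KO. In Het microglia it had 4525 CPM on plate 056s, 1851 CPM on plate 524s and 2344 CPM on plate 529s. In WT microglia it had 3664 CPM on plate 059s, 1815 CPM on plate 529s and 5240 CPM on plate 530s. The same plates, 056s and 059s, were high again, together with the pools of the KO cell and of the WT cell at 35.4% described above. On plate 524s the KO over Het log2 ratio was 1.47, and 0.51 without cells over 10%.

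mt-Co1 varied less. In KO macrophages it had 3430 CPM on plate 060s and 3118 CPM on plate 524s. In Het macrophages it had 4205 CPM on plate 056s, 2347 CPM on plate 524s and 3816 CPM on plate 529s, and in WT macrophages 3976 CPM on plate 059s, 3490 CPM on plate 529s and 3111 CPM on plate 530s. The genotypes overlapped. In microglia the 8 pools of mt-Co1 ran from 2459 to 4778 CPM and overlapped likewise.

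The complex I genes moved within similar bounds. mt-Nd1 had 1143 to 2597 CPM over the 8 macrophage pools and 1095 to 2873 CPM over the microglial pools. mt-Nd4 had 482 to 985 CPM in macrophages and 472 to 991 CPM in microglia, and mt-Nd5 442 to 1323 CPM and 811 to 1329 CPM. The lowest macrophage pool of these 3 genes, and of mt-Nd2 and mt-Nd6 with 85.8 and 61.5 CPM, was Het 524s each time. mt-Nd2 was the 1 microglial gene beyond 1.5-fold over both controls. Its log2 ratio was 0.64 over WT and 0.67 over Het, with 161 CPM on plate 060s and 462 CPM on plate 524s in KO microglia. The Het and WT pools had 101 to 279 CPM, so 1 KO pool was below all but the lowest of them and the other above all. On plate 524s the KO over Het log2 ratio of mt-Nd2 was 1.35 in microglia, and -0.33 without the cells over 10%.

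mt-Tq was the member with the largest KO over WT ratio in macrophages, 0.86 on the log2 scale. It had 25.8 CPM on plate 060s and 12.8 CPM on plate 524s in KO, against 11.3 to 15.8 CPM in Het pools and 10.0 to 14.8 CPM in WT pools. Only plate 060s was high. The KO microglia of plate 060s had 25.7 CPM as well, against 15.2 CPM on plate 524s in KO, 14.7 to 21.5 CPM in Het pools and 15.0 to 23.7 CPM in WT pools.

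On plate 524s alone, 9 of 10 members had a log2 ratio above 0 for KO over Het in macrophages, with a median of 0.37. In microglia 6 of 9 members were above 0, with a median of 0.42; without the cells over 10% it was 4 of 9, with a median of -0.01. On plate 529s the Het over WT ratio was above 0 for 8 of 10 members in macrophages (median 0.11) and for 7 of 9 in microglia (median 0.23). These members share the same cells and are not independent of each other. The same values over all genes were not computed for these plates, so a shift of the members cannot be told from a shift of all genes.

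The balance between mt-Rnr2 and the messages differed by plate, with both cell types of a plate close together. Per protein-coding mitochondrial count, mt-Rnr2 stood at 1.28 in KO macrophages on plate 060s and at 2.10 on plate 524s. In Het macrophages it stood at 0.447 on plate 056s, 2.44 on plate 524s and 1.88 on plate 529s, and in WT macrophages at 0.749 on plate 059s, 1.84 on plate 529s and 1.61 on plate 530s. The microglia of each plate were near the macrophages of the same plate. In KO microglia the ratio was 1.34 on plate 060s and 1.20 on plate 524s. In Het microglia it was 0.429 on plate 056s, 2.45 on plate 524s and 2.07 on plate 529s, and in WT microglia 0.728 on plate 059s, 1.91 on plate 529s and 1.73 on plate 530s. The pool farthest from its plate, KO microglia on plate 524s, had a ratio of 2.09 without the cell over 10%.

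The share of Rn18s, an rRNA of the cytoplasm, rose from plate 056s to 059s to 060s to the other plates, as the ratio did by the median cell. Over both cell types it was 16.4% to 17.2% of all gene counts on plate 056s, 27.8% to 30.5% on plate 059s and 40.7% to 41.5% on plate 060s. It was 48.3% to 56.4% on plate 524s, 52.2% to 56.4% on plate 529s and 51.6% to 52.0% on plate 530s. Among these last plates the Rn18s share did not follow the order of the ratio. Depth moved as well: the median macrophage had 891311 counts without Rn18s on plate 056s and 361651 on plate 059s, against 109021 to 214869 on the other 4 plates. Plates 056s (Het), 059s (WT), 060s (KO) and 530s (WT) each held 1 genotype, so plate, genotype, depth and Rn18s share cannot be told apart there. Within pools the relation was weak: the Spearman correlation between the 2 measures across cells had a median of 0.20 over 8 pools of macrophages, above 0 in 5, and 0.16 over 8 pools of microglia, above 0 in 5. Both measures come from the same reads of a cell.

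**Figure D3:**
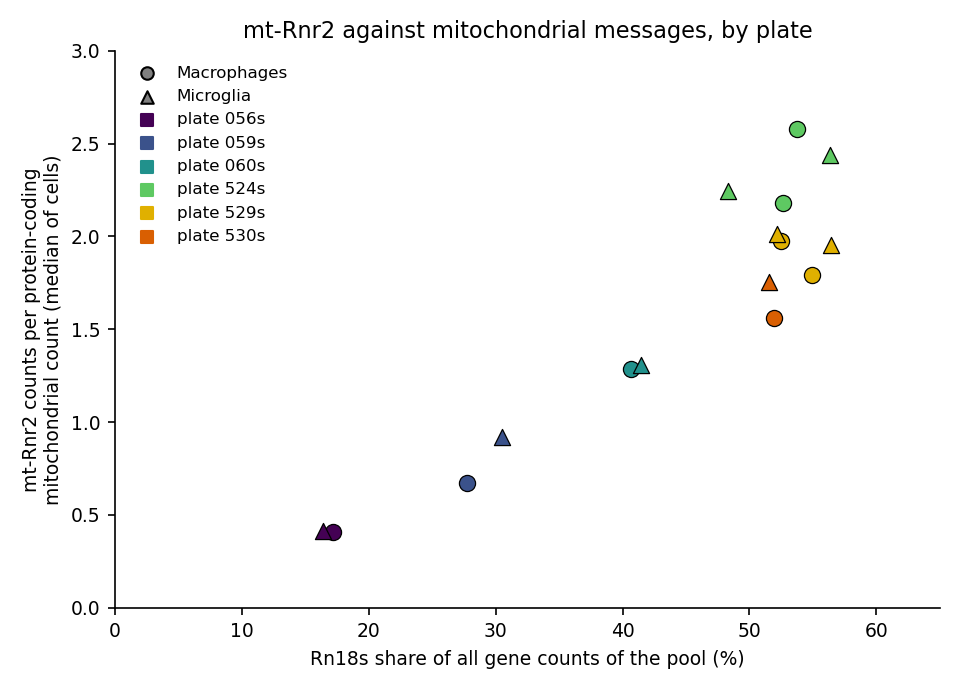
Rn18s share of all gene counts of a pool (percent, x axis) against the median over its cells of mt-Rnr2 counts per protein-coding mitochondrial count (y axis). Circles are macrophage pools, triangles microglial pools, and colours plates. Both cell types of a plate lie together, with 0.407 and 0.411 on plate 056s and 2.18 to 2.58 on plate 524s.

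The genotypes differed more in mt-Rnr2 than in the sum of the mitochondrial genes. mt-Rnr2 had 13065 CPM in KO macrophages, 8031 CPM in Het and 13036 CPM in WT. In microglia it had 13433 CPM in KO, 9752 CPM in Het and 12177 CPM in WT. The low Het values came with plate 056s, which had 6518 CPM in macrophages and 5708 CPM in microglia; the other Het pools had 15364 to 20359 CPM in macrophages and 16611 to 17740 CPM in microglia. The protein-coding share moved the other way in macrophages, with 0.871% in KO, 1.38% in Het and 1.02% in WT. The high Het value also came with plate 056s, at 1.46%, against 1.08% on plate 529s and 0.629% on plate 524s, the lowest macrophage pool. In microglia the protein-coding share was 1.09% in KO, 1.13% in Het and 1.13% in WT.

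mt-Rnr1 and mt-Rnr2 were both lowest on plate 056s in each cell type. Both were highest on plate 529s in macrophages and on plate 530s in microglia. The ratio between them still varied. mt-Rnr1 had 516 CPM on plate 060s and 492 CPM on plate 524s in KO macrophages, 311 to 607 CPM in Het pools and 323 to 666 CPM in WT pools. mt-Rnr2 had 20.9 counts per mt-Rnr1 count in Het macrophages on plate 056s and 39.2 in WT macrophages on plate 530s, the extremes over the macrophage pools. The extremes over the microglial pools were 26.4 on plate 056s and 46.7 on plate 529s, both in Het cells.

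Among the 7 counted protein-coding genes the proportions were steadier. mt-Co1 made up 28.8% to 39.7% of protein-coding mitochondrial counts over the 8 macrophage pools and 24.0% to 36.3% over the microglial pools. mt-Cytb made up 24.1% to 36.6% in macrophages and 24.5% to 37.4% in microglia, and mt-Nd1 16.5% to 24.5% and 14.0% to 20.9%. mt-Nd5 held 7.03% to 10.0% in macrophages and 6.14% to 12.9% in microglia, and mt-Nd4 6.76% to 7.91% and 6.31% to 8.57%. mt-Nd2 and mt-Nd6 were the lowest in every pool: mt-Nd2 had 1.36% to 2.32% in macrophages and 1.36% to 3.36% in microglia, and mt-Nd6 0.762% to 1.23% and 0.894% to 1.57%. mt-Cytb outweighed mt-Co1 on plates 056s and 059s in both cell types, and besides them in KO 524s and WT 530s microglia.

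**Figure D4:**
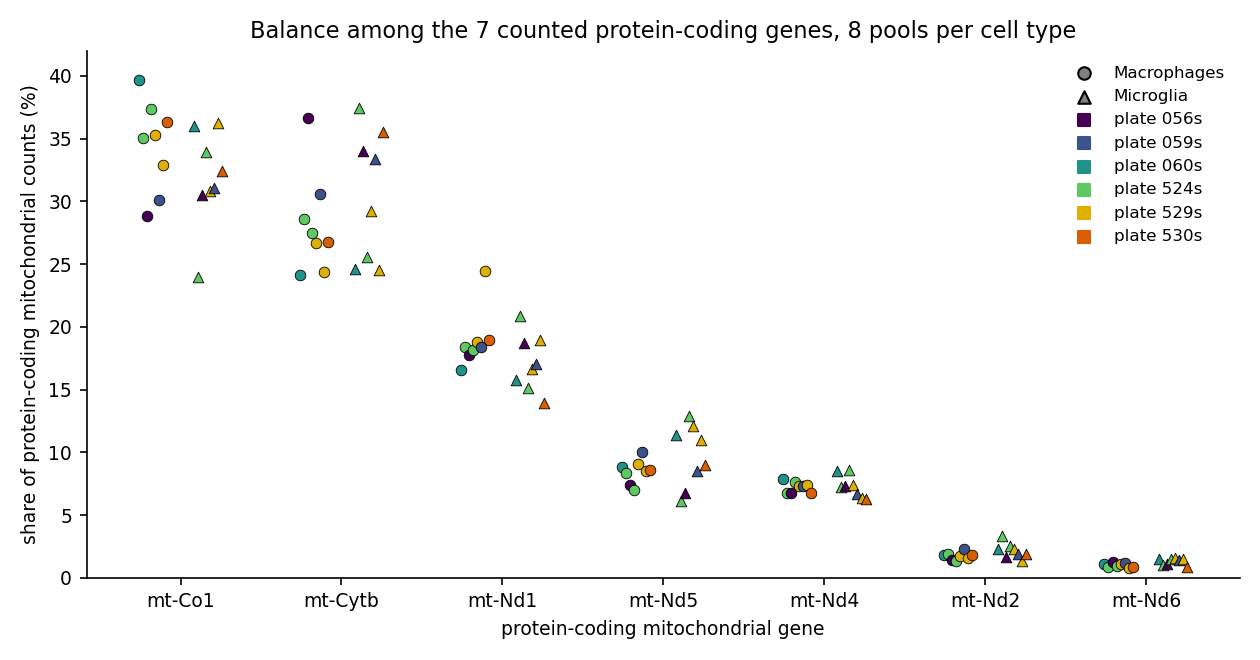
Share of protein-coding mitochondrial counts (percent) held by each of the 7 counted genes, 1 point per pool. Circles are macrophage pools, triangles microglial pools, and colours plates. mt-Co1 or mt-Cytb leads in every pool, mt-Nd1 lies below both except in WT macrophages of plate 529s, where it is close to mt-Cytb, and mt-Nd4 has a narrow range for its level, 6.76% to 7.91% in macrophages.

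Macrophages and microglia of the same plate and genotype were compared over the 8 pools. Their mitochondrial shares were close: 2.30% in macrophages and 2.33% in microglia, a log2 ratio of -0.02 with a standard deviation of 0.43 between the 8 pool ratios. The share was higher in macrophages in 5 of 8 pools, with a median log2 ratio of 0.20. By the median cell it was higher in 7 of 8 pools, with a median log2 ratio of 0.26. Without the 4 microglial cells over 10% it was also higher in 7 of 8 pools, with a median of 0.24.

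Of 9 mitochondrial genes measured, 0 were at least 1.5-fold apart in 1 direction in all 8 pools; of 7088 genes, 3.68% were so higher in macrophages and 5.62% lower. mt-Rnr1 was higher in macrophages in 7 of 8 pools, with 382 CPM in macrophages and 352 CPM in microglia. mt-Nd6 was lower in macrophages in 6 of 8 pools, with 122 CPM in macrophages and 137 CPM in microglia. Neither passed the fold limit.

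Relative to the ERCC RNAs, spiked into each well, macrophages had fewer mitochondrial counts than microglia in all 8 pools. There were 0.846 to 1.43 mitochondrial counts per ERCC count in macrophage pools and 1.15 to 2.77 in microglial pools, with a median log2 ratio of -0.50 (-1.20 to -0.11). All counts together were lower likewise, with 38.2 to 59.2 per ERCC count in macrophage pools and 48.3 to 111 in microglial pools, a median log2 ratio of -0.66. Mitochondrial and total counts were lower together. The amount of ERCC RNA per well is not given in the sources used here, and counts per ERCC count include any difference in capture.

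The cell type labels held against their markers. All 10 macrophage markers, such as Mrc1, Cd163 and Lyve1, were higher in macrophages, and all 10 microglial markers, such as Tmem119, P2ry12 and Sall1, in microglia. Macrophage markers were not absent from microglia: they stood at 198 to 7836 CPM in macrophages and at 70.1 to 3661 CPM in microglia. Within microglial pools the mitochondrial share and the summed share of macrophage markers had a median Spearman correlation of -0.28, above 0 in 1 of 8 pools. In macrophages the same relation had a median of 0.15, above 0 in 7 of 8 pools. The part of macrophage RNA in the microglial values was not tested. Markers of mural cells, the cells in which SM22-Cre is known to be active, summed to 0.757 CPM in macrophages and 1.76 CPM in microglia. Notch3, a gene of mural cells, had 2 counts in KO, 0 in Het and 77 in WT macrophages, the last all in 1 cell. It had 1 count in each genotype of microglia. It therefore gave no check of the genotype labels, and depth ran from 1488 to 2107020 counts per cell of these types without Rn18s.

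Across single cells, mitochondrial genes varied together within a pool. The share of protein-coding mitochondrial genes and the share of mt-Rnr2 had a median Spearman correlation of 0.43 in macrophages and 0.74 in microglia, above 0 in 8 of 8 pools each. Over the 21 pairs of the 7 counted protein-coding genes, the median over pools ran from 0.19 to 0.58 in macrophages, with a middle value of 0.40. In microglia it ran from 0.23 to 0.66, with a middle value of 0.52. The lowest pair in macrophages was mt-Nd2 with mt-Co1 at 0.19, and in microglia mt-Nd2 with mt-Nd4 at 0.23. mt-Nd5 and mt-Nd6, the overlapping pair on opposite strands, reached 0.66 in microglia. These correlations are descriptions over 400 macrophages and 215 microglia; all values of a cell share its library.

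The mitochondrial share had no common direction with depth, with a median correlation with total counts of -0.01 in macrophages and 0.03 in microglia. Single pools ran from -0.36 to 0.35 in macrophages, above 0 in 4 of 8, and from -0.48 to 0.34 in microglia, above 0 in 5 of 8. The mitochondrial share went along with the nuclear genes of oxidative phosphorylation, at a median of 0.28 in macrophages and 0.36 in microglia. This list of 80 genes, the nuclear subunits of complexes I to V, was scaled to the nuclear counts of each cell. Its share correlated with that of the protein-coding mitochondrial genes at a median of 0.31 in macrophages, above 0 in 8 of 8 pools, and of 0.37 in microglia, above 0 in 7 of 8. The proteins of the mitochondrial ribosome, which translates these messages, are all nuclear. Their share correlated with the protein-coding mitochondrial share at a median of 0.19 in macrophages and 0.20 in microglia. With the whole mitochondrial share the median was 0.04 in macrophages (-0.19 to 0.39 over pools) and 0.21 in microglia. With the share of mt-Rnr2 it was -0.12 in macrophages, above 0 in 4 of 8 pools.

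The nuclear genes most like the mitochondrial share were ranked by the mean of their within-pool correlations with it. In macrophages, among 1960 genes, these were Pf4 (0.46), a chemokine also called platelet factor 4, Rpl32 (0.37), a ribosomal protein, Itm2b (0.36), a membrane protein, Fcer1g (0.35), the shared Fc receptor chain, and B2m (0.34), the light chain of MHC class I. In microglia, among 3328 genes, they were Tmsb4x (0.33), which binds actin, Rplp1 (0.32), a ribosomal protein, Cox8a (0.31), a nuclear subunit of complex IV, Usp34 (0.28), a deubiquitinase, and Scoc (0.28). The median gene stood at 0.03 in macrophages and -0.03 in microglia. No gene was among the leading 5 in both cell types.

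Nuclear partners were compared between genotypes by the same rule. Of 57 nuclear oxidative phosphorylation genes measured in macrophages, 1, Cox5b of complex IV, was called higher in KO (1.27% of all genes). Cox5b had 20.9 CPM in KO, 10.4 CPM in Het and 12.5 CPM in WT. Of 53 in microglia, 1, Ndufs7 of complex I, was called lower in KO (1% of all genes). Ndufs7 had 50.5 CPM in KO, 89.3 CPM in Het and 84.0 CPM in WT. For Het against WT, Uqcrh of complex III was lower in macrophages (1 of 57, against 4.92% of all genes). Ndufs3 and Ndufb11 of complex I were lower in microglia (2 of 53, against 3.03%). Beside these shares, counts of 1 or 2 genes say nothing particular to this list. Among the highest members, Atp5b, the catalytic subunit of the ATP synthase, had 744 CPM in KO, 768 CPM in Het and 806 CPM in WT macrophages. Sdha of complex II had 528 CPM in KO, 331 CPM in Het and 384 CPM in WT macrophages, and was not called.

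Of 13 genes for mitochondrial transcription and replication measured in macrophages, 1, Pprc1, was called lower in KO (1.64% of all genes). Pprc1, a coactivator of the PGC-1 family, had 9.93 CPM in KO, 34.6 CPM in Het and 79.3 CPM in WT. In microglia it had 101 CPM in KO, 84.8 CPM in Het and 61.8 CPM in WT and was not called. Of 12 genes of this list measured in microglia, 1, Nrf1, was called lower in KO (1% of all genes). Nrf1, a transcription factor for nuclear genes of mitochondria, had 43.9 CPM in KO, 74.3 CPM in Het and 71.9 CPM in WT. Polg, the mitochondrial DNA polymerase, and Mterf3, a mitochondrial termination factor family member, were called lower in Het than in WT microglia. That is 2 of 12, against 3.03% of all genes. Of 13 genes for mitochondrial RNA processing and decay measured in microglia, 1, Fastk, was called higher in KO (1.45% of all genes). Fastk had 97.6 CPM in KO, 31.2 CPM in Het and 63.9 CPM in WT. Lrpprc, which stabilises mitochondrial messages, had 70.8 CPM in KO, 67.8 CPM in Het and 27.7 CPM in WT macrophages and was not called.

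Of 48 mitochondrial ribosomal proteins measured in macrophages, 1, Mrpl57, was called lower in KO (1.64% of all genes). Of the same 48, 4 were called lower in Het than in WT (4.92% of all genes), among them Mrps9, Mrps25 and Mrps27. Of 40 measured in microglia, 1, Mrps30, was called lower in KO (1% of all genes). Between cell types, 2 of 55 measured oxidative phosphorylation genes, Ndufa7 and Ndufb8 of complex I, were called higher in macrophages than in microglia. Of 38 measured mitochondrial ribosomal proteins 2 were, Mrps12 and Mrpl39. Of all genes, 3.68% were called higher in macrophages. Ndufb8, for example, had 85.7 CPM in macrophages and 51.1 CPM in microglia. The calls between genotypes stand beside the share of all genes given above for each comparison, 1% to 4.92%.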

How the data were processed

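The authors deposited 1 table of raw read counts, whole numbers per gene symbol and cell, for 629 cells, 53546 gene rows and 92 ERCC sequences. The submitters' processing notes name STAR, with no version. The genome build, annotation, counting program, use of strand, handling of reads that fit several places and filters on cells are not given in the sources used here. No filter on cells and no doublet caller was applied here, and no pair of cells had identical counts.

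Counts were summed over cells of a genotype or pool and divided by the total without ERCC and Rn18s (median 213524 per cell, lowest 1488). CPM took a pseudocount of 1, a floor of 20 and a fold limit of 1.5, and a pool had to hold 10 or more cells. Since the labels name no animal, no test between genotypes was run. Exact 95% intervals cover counting error only. Python 3.11.15 with pandas 2.3.3, numpy 2.4.6, scipy 1.17.1 and matplotlib 3.10.9 was used, and for alternative scalings edgeR 4.0.16 and DESeq2 1.42.0 in R 4.3.3. The call rule was tried on simulated pools with Poisson counts, changes larger than the fold limit and no spread between plates. It therefore does not show how the rule performs near that limit or with such spread. Sequences and shared 50-base windows come from the GENCODE M21 transcripts (GRCm38).

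The protein-coding and rRNA genes are all named, tRNA genes only from 20 CPM. Of each nuclear list the called genes are named (up to 4), otherwise the 2 highest or 1 of them; the genes most like the share are the 5 with the highest mean correlation among those with at least 20 CPM and a count in 50% of cells. Members and lists were chosen with earlier results of these data known.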

Additional observations from a re-analysis of the deposited data

Results flagged for a closer look

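The 14 cells of the type named 7 entered no comparison. Their mitochondrial share, summed, was 6.02% (exact interval 5.97% to 6.08%), above every pool of macrophages and microglia, and single cells ran from 1.82% to 20.0%. It was 6.21% in 6 KO cells, 7.52% in 4 Het cells and 3.86% in 4 WT cells. Single cells set these sums: without the cell with the most mitochondrial counts the share was 7.24% in KO, 4.98% in Het and 9.37% in WT, so no order of genotypes can be read. Their median depth was 25329 counts without Rn18s, against 197196 in macrophages and 246554 in microglia, and mt-Rnr2 stood at 1.61 per protein-coding mitochondrial count. The part of depth in this share was not tested.

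Gm28438, the chromosome 1 copy of mt-Nd3, had 1051 counts over all cells, while mt-Nd3 itself had 1. It was counted in 219 of 400 macrophages and 131 of 215 microglia. The other 6 copies had 6 to 186 counts. Among macrophage pools it stood at 6.30 to 9.52 CPM in KO, 2.43 to 8.56 CPM in Het and 3.56 to 5.56 CPM in WT. Among microglial pools it stood at 8.36 to 8.67 CPM in KO, 4.46 to 10.5 CPM in Het and 3.38 to 5.10 CPM in WT. In both cell types the KO pools lay above the WT pools, while the Het pools overlapped both. The gap was narrow in macrophages, with 6.30 CPM from 29 counts in KO 524s and 5.56 CPM from 106 counts in WT 059s. How many of all genes have KO and WT pools apart in this way was not counted, so no genotype difference is read from it. It was below 20 CPM throughout and entered no call. The labels give the strain as C57BL/6 without a substrain, and from which locus these reads came was not tested.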

How the results depend on the processing

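Of the 7 log2 ratios of the mitochondrial share, those between genotypes moved with several settings, and the cause was not tested. In macrophages KO over Het was -0.42 with Rn18s kept in the total, -0.66 over protein-coding genes only and 0.34 on plate 524s alone, with or without cells over 10% (not planned, chosen after seeing the data). Het over WT was 0.38 with Rn18s in the total, 0.25 by the median cell and 0.43 over protein-coding genes only. In microglia KO over Het was -0.27 by the mean of cells' shares and -0.28 with cells thinned to 20000 counts. Leaving out 1 plate at a time gave -0.22 to 0.25 for KO over WT, -0.28 to 0.34 for KO over Het and -0.17 to 0.20 for Het over WT in macrophages. In microglia it gave -0.48 to 0.36, -0.29 to 0.52 and -0.67 to 0.12 for the same ratios, and -0.11 to 0.08 for macrophages over microglia. Called mitochondrial genes numbered 0 to 1 in KO macrophages (mt-Tq without plate 524s) and 0 to 2 in KO microglia (mt-Nd2 without plate 060s, mt-Nd1 and mt-Cytb without plate 524s). These settings leave 1 KO pool, and the rule then called 816 of 7514 genes in macrophages without plate 524s, and in microglia 897 of 7594 without plate 060s and 923 of 7622 without plate 524s. With no floor on low counts, 1 gene (mt-Tv) was called between cell types. Of the recomputed share ratios and counts of called genes, 133 stayed close to the value reported and 21 did not. Of 684 recomputed log2 ratios of single mitochondrial genes, 39 moved by more than the spread between pools and 87 had the other direction. Including Rn18s shifted the median of all genes by -0.41 for KO over Het and 0.46 for Het over WT in macrophages. No paired analysis was possible because no comparison here comes from a test; values within the 2 plates that hold a pair of genotypes, 524s and 529s, are given in the report. No animal is named, and depth differs between plates, so both limit these comparisons.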
